A study of Homo sapiens with 12 samples.

Results

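Laminin-332 and hemidesmosome mRNAs were followed through the ribosome fractions of human mammary epithelial cells with and without CBFB. The 9 genes were chosen by name as parts of basement membrane adhesion, with earlier results of these data known. They were LAMA3 and LAMB3, which encode laminin chains, the integrin genes ITGA6, ITGB4, ITGA3 and ITGB1, the collagen gene COL17A1, and the plakin genes PLEC and DST. Each has a row in the deposited tables, which list 56632 genes, and all 9 were among the 16275 genes that passed the filter on low counts.

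Laminin-332 is a secreted protein of the basement membrane that holds the LAMA3 and LAMB3 chains and lies under stratified and glandular epithelia. The integrin made of ITGA6 and ITGB4 binds it from the cell surface and, with the transmembrane collagen COL17A1, forms the hemidesmosome, which plectin (PLEC) and the epithelial form of dystonin (DST) tie to keratin filaments. The integrin made of ITGA3 and ITGB1 binds the same laminin outside hemidesmosomes, and, apart from the plakins, these proteins are made at the endoplasmic reticulum.

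MCF10A is a non-tumorigenic human mammary epithelial line. Wild-type (WT) cells and cells in which CBFB was disrupted by CRISPR (CBFB_KO), grown from single-cell colonies, were compared. Both were treated with cycloheximide, which holds ribosomes on mRNA, at 100 µg/ml for 30 min, and lysates were spun through sucrose gradients. RNA of the ribosome-free part (free), of single ribosomes (mono) and of pooled polyribosomes (poly) was sequenced in 2 libraries per genotype and fraction, 12 in all. Neither a separate culture for each replicate nor the number of clones behind CBFB_KO is given for these libraries in the sources used here, so the p-values measure the spread between these libraries, and clone and genotype cannot be told apart. The comparison asks whether loss of CBFB moves mRNAs between the free and ribosome-bound fractions.

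Library totals were between 41050325 and 63886726 expected counts, RSEM's estimate of the reads belonging to each gene. The CBFB_KO free libraries stood apart: 71.6% and 87.2% of their counts lay on genes of the mitochondrial genome, against 11.1% and 20.8% in the WT free libraries and 8.08% at most in mono and poly, which left 13568143 and 5247878 counts for nuclear genes. The CBFB_KO poly libraries differed from each other far less than any other pair, with a mean chi-square per gene of 2.3 against 128.4 or more, and counts of called members that rest on them are also given with that pair counted as 1 sample. The spread behind each p-value was estimated over all 12 libraries together, so this pair also enters the p-values of comparisons without poly. CBFB mRNA was present in every library, at 5.37 to 12.6 CPM in WT and 3.59 to 14.1 CPM in CBFB_KO. CPM are counts scaled to a library size adjusted by TMM, a method that sets most genes level between libraries. The change of CBFB was not called in any fraction (log2 change 0.49, -0.71 and -0.72 in free, mono and poly). An mRNA level does not report on an edited reading frame, so it checks the labels only in part. Of 5 basal epithelial markers, KRT5, KRT17 and S100A2 were at 92.7 TPM, RSEM's length-scaled abundance, or more in every library, KRT14 was between 0.984 and 133 TPM and TP63 between 0.149 and 86.1 TPM, whereas the leukocyte gene PTPRC was listed at 0 in all 12.

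The annotation places the mRNAs on chromosome 18 (LAMA3), 1 (LAMB3), 2 (ITGA6), 17 (ITGB4 and ITGA3), 10 (ITGB1 and COL17A1), 8 (PLEC) and 6 (DST). Because translation begins at the start codon, the sequence around it is shown for a single transcript of each gene, 5′ to 3′. The transcripts are from GENCODE release 29 (GRCh38). Each is the longest protein-coding transcript in the top class of principal isoforms (APPRIS) annotated for the gene. The capitals mark the ATG, the 12 bases before it belong to the 5′ UTR, and the 6 bases after it are coding.
LAMA3: ccgcgcggctggATGgcggcg
LAMB3: cattggctgaagATGagacca
ITGA6: gtgcgtccgcccATGgccgcc
ITGB4: gggaggaagaggATGgcaggg
ITGA3: ccgctggcagccATGggcccc
ITGB1: gggcaagcgcagATGaattta
COL17A1: ggtggctatggtATGgatgta
DST: ggccaagaaaagATGagttcc
The contexts of ITGB4, ITGA3 and COL17A1 hold both letters known to favour initiation, A or G at the 3rd base before the ATG and G straight after it, as do 42.6% of 18447 annotated genes. LAMB3 and DST hold the purine alone, LAMA3 and ITGA6 the G alone, and ITGB1 neither. These transcripts run at chr18:23689443-23956222 (LAMA3, plus strand), chr1:209614870-209652466 (LAMB3, minus), chr2:172427354-172506282 (ITGA6, plus), chr17:75721328-75757818 (ITGB4, plus), chr17:50055968-50090481 (ITGA3, plus), chr10:32900319-33005792 (ITGB1, minus), chr10:104031286-104085957 (COL17A1, minus) and chr6:56457987-56954628 (DST, minus). They are annotated forms and not necessarily those the cells used. For LAMA3 the mean isoform length that RSEM estimated was 1531 to 3789 bases in the 12 libraries, far under the 10661 bases of the transcript shown.

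Annotated length and base composition differed widely among the 9. DST (17756 bases), PLEC (15249) and LAMA3 (10661) were the longest, ITGB4 (5919), COL17A1 (5689), ITGA6 (5618), ITGA3 (4888) and LAMB3 (4305) intermediate, and ITGB1 (3784) the shortest, and all were above the median of 2738 bases over annotated genes. GC content was lowest in ITGB1 (40.0%), DST (42.2%) and ITGA6 (42.9%), followed by LAMA3 (50.7%) and COL17A1 (55.9%), and was highest in LAMB3 (58.9%), ITGA3 (60.9%), ITGB4 (63.7%) and PLEC (67.0%), against a median of 49.7% over annotated genes.

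In WT cells these mRNAs were higher in the polyribosomal RNA than in the other fractions, except that DST did not pass the test against free. The tests and CPM levels use library sizes multiplied by TMM factors. These were 0.4937 and 0.2409 in CBFB_KO free and 1.124 and 1.241 in WT free. A level is relative to most other genes of that fraction, neither a share of all its RNA nor an amount per cell. By edgeR's quasi-likelihood test on all genes, with Benjamini-Hochberg adjustment and a threshold of 0.05, 8 of the 9 were higher in poly than in free, where 14.0% of all genes tested were, and all 9 were higher in poly than in mono, where 11.0% of all genes were. Among the 845 long genes, those with a mean effective length of at least 5000 bases by RSEM's estimate, the shares were 25.3% and 23.4%. By that estimate 2 of the 9, ITGA6 and PLEC, belonged to the long genes and 7 did not, whatever their annotated length. The log2 change from free to poly was largest for LAMB3 (3.68, SE 0.49, adjusted p = 0.0017) and ITGA6 (2.93, SE 0.61, adjusted p = 0.0077) and smallest for LAMA3 (1.83, SE 0.50, adjusted p = 0.025). DST, at 1.91 (SE 0.72), missed the threshold with an adjusted p of 0.079 by edgeR. With either WT replicate left out, a lone library stands for each WT condition. Fewer members were then called against free and against mono, and so were fewer of all genes tested.

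Per length, the order of levels within the WT polyribosomes was led by the integrin chains of high GC content. The level of ITGB4 was 255 and 319 TPM in the 2 libraries, with TPM taken over genes outside the mitochondrial genome, and that of ITGA3 was 142 and 175 TPM. LAMB3 followed with 66.0 and 106 TPM, below both ITGA3 values. Next by mean came COL17A1 (32.2 and 76.0 TPM), ITGB1 (13.7 and 55), LAMA3 (10.8 and 31.2) and PLEC (15.4 and 18.5), and neighbours from LAMB3 to PLEC overlapped, so their order is within the spread of the libraries. ITGA6 (4.62 and 14.5 TPM) lay below both PLEC values and overlapped with DST, the lowest at 1.10 and 5.94 TPM. The partners of each integrin were unequal at the mRNA level: in TPM, ITGB4 exceeded ITGA6 in all 12 libraries, and ITGA3 exceeded ITGB1 likewise.

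**Figure D1:**
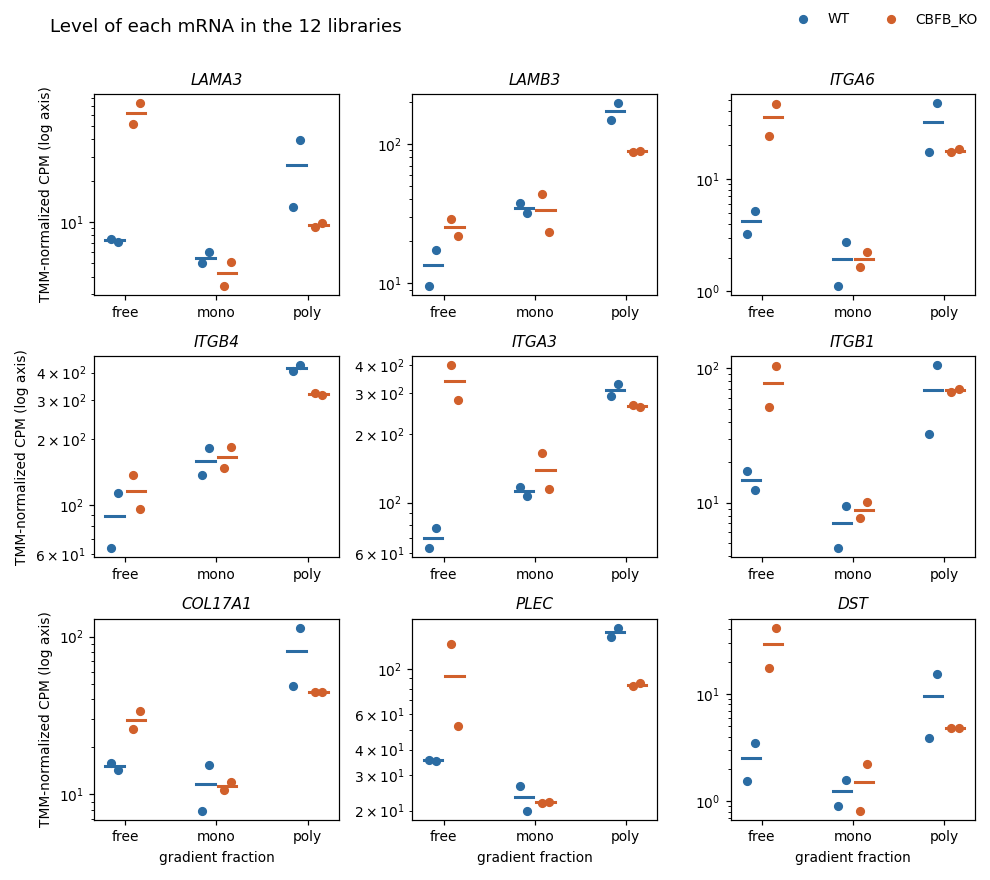
TMM-normalized CPM (log axis, its own range in each panel) of the 9 mRNAs in the free, mono and poly fractions of WT and CBFB_KO cells. Points are the 2 libraries of a condition and bars their mean. In free, both CBFB_KO points lie above both WT points for 8 genes, ITGB4 being the exception, whereas the mono points of the genotypes overlap for every gene.

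In CBFB_KO cells the free-fraction level of most of these mRNAs was higher, and their poly to free ratio lower, than in WT. In free, 6 of 9 rose by edgeR's test (LAMA3, DST, ITGA6, ITGB1, ITGA3 and PLEC, adjusted p = 0.0015 to 0.029) and none fell, while 24.2% of all genes tested rose and 18.1% fell, and 67.1% of the long genes rose, a class that holds ITGA6 and PLEC alone of the 9. The median log2 change over the 9 was 2.27, against 0.04 over all genes. Both CBFB_KO libraries lay above both WT libraries for 8 of 9, a pattern seen in 37.4% of all genes. In a fit of the free libraries alone, fewer members passed. There 1824 of 14350 genes rose and 97 fell, against 3943 and 2939 of 16275 in the main fit. The poly to free ratio fell for 5 of 9 (LAMA3, DST, ITGA6, ITGA3 and PLEC) and rose for none, where it fell for 14.3% of all genes, rose for 4.10% and fell for 47.1% of the long ones, and the members' median log2 change in the ratio was -2.40, against -0.10 over all genes and -2.94 over the long genes. Without CBFB_KO replicate 2, whose free library was the shallowest in nuclear counts, fewer members passed in free and for the ratio. The share of all genes that passed there fell as well. Fewer members also passed for the ratio without WT replicate 2 and with the CBFB_KO poly pair counted as 1 sample. With that pair as 1 sample, LAMA3 kept its call for the ratio, while DST, ITGA6, ITGA3 and PLEC lost theirs. The share of all genes that fell in the ratio was lower with the pair as 1 sample, but not without WT replicate 2. With an offset for each library's trend with gene length, LAMA3 and ITGA3 kept the same direction and passed in both comparisons while PLEC fell in free, and with library size alone as the scale, under which the median log2 change over all genes was -1.57 in free and 1.54 in the ratio, 0 passed in free and 1 (LAMA3) in the ratio. That scale also turned the split over all genes in the ratio, from 2332 lower and 668 higher to 646 and 3003.

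Of the laminin chain mRNAs, both of which were higher in poly than in free in WT, LAMA3 passed the tests between genotypes in free and in the poly to free ratio and LAMB3 did not, and the difference between them was not tested. Neither passed in mono or poly. LAMA3 levels were 7.53 and 7.17 CPM in WT free and 51.8 and 73.7 CPM in CBFB_KO free, on the scale of TMM-normalized counts on which all CPM values here are given. In poly they were 12.8 and 39.5 CPM in WT and 9.16 and 9.82 CPM in CBFB_KO. The groups did not overlap in either fraction: CBFB_KO was higher in free and lower in poly. The poly to free ratio of LAMA3 was 1.70 and 5.51 in the WT gradients and 0.177 and 0.133 in the CBFB_KO gradients, matching libraries by their number. Its log2 change in free was 3.09 (SE 0.53, adjusted p = 0.0016, edgeR) and that of the ratio -4.55 (SE 0.72, adjusted p = 0.0022, edgeR), the lowest of the 9. The ratio's change passed under every alternative processing run except without CBFB_KO replicate 2, where it was -4.34 with an adjusted p of 0.057 by edgeR.

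LAMB3 levels were 9.56 and 17.3 CPM in WT free and 28.7 and 21.8 CPM in CBFB_KO free. In poly they were 149 and 197 CPM in WT and 87.8 and 88.9 CPM in CBFB_KO. The poly to free ratio of LAMB3 was above 1 in both genotypes, at 15.5 and 11.4 in WT and 3.05 and 4.07 in CBFB_KO. The poly over free change within CBFB_KO was 1.80 on the log2 scale (SE 0.45, adjusted p = 0.012, edgeR), and the change of the ratio between genotypes, -1.88 (SE 0.62), missed the threshold with an adjusted p of 0.056 by edgeR. Across the 12 libraries the log2 levels of LAMA3 and LAMB3 had a Pearson r of 0.17, the libraries sharing fraction and genotype.

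Of the hemidesmosomal integrin, the alpha chain mRNA passed the tests between genotypes in free and in the poly to free ratio and the beta chain mRNA did not, and the difference between them was not tested. Neither passed in mono or poly. ITGA6, the alpha chain, was at 3.22 and 5.22 CPM in WT free and 23.9 and 46.6 CPM in CBFB_KO free. In poly it was at 17.2 and 47.3 CPM in WT and 17.2 and 18.4 CPM in CBFB_KO. Its free levels did not overlap between genotypes, whereas its poly levels did. The log2 change of ITGA6 was 3.06 in free (SE 0.62, adjusted p = 0.0039, edgeR) and -3.92 in the ratio (SE 0.83, adjusted p = 0.0095, edgeR). Both calls were lost after the length offset, where the changes were 0.54 and -1.22, and with GC and length offsets together, where they were -0.02 and -0.67 (adjusted p = 0.14 to 0.96, edgeR). They were also lost without CBFB_KO replicate 2 (adjusted p = 0.057 in free and 0.16 in the ratio, edgeR).

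ITGB4, the beta chain that carries the long cytoplasmic tail of this integrin, was at 63.7 and 114 CPM in WT free and 137 and 95.7 CPM in CBFB_KO free. In poly it was at 406 and 432 CPM in WT and 324 and 316 CPM in CBFB_KO. It was the member whose free levels overlapped between genotypes, and its log2 change was 0.39 in free (SE 0.40, adjusted p = 0.45, edgeR) and -0.78 in the ratio (SE 0.57, adjusted p = 0.33, edgeR). ITGB4 stayed higher in poly than in free within CBFB_KO, by 1.46 on the log2 scale (SE 0.41, adjusted p = 0.020, edgeR).

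Both chains of the other laminin-binding integrin rose in free, the call of ITGB1 being lost under more of the alternatives than that of ITGA3. ITGA3 was at 63.2 and 77.2 CPM in WT free and 398 and 281 CPM in CBFB_KO free. Its poly levels were 293 and 329 CPM in WT and 266 and 263 CPM in CBFB_KO, so the free values of CBFB_KO reached those of poly. The log2 change of ITGA3 was 2.27 in free (SE 0.38, adjusted p = 0.0015, edgeR) and -2.50 in the ratio (SE 0.52, adjusted p = 0.0089, edgeR). The call for the ratio was lost without WT replicate 1, WT replicate 2 or CBFB_KO replicate 2. It was also lost with the CBFB_KO poly pair as 1 sample and with library size alone as the scale.

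ITGB1, the beta chain shared by many integrins, was at 17.1 and 12.5 CPM in WT free and 51.1 and 104 CPM in CBFB_KO free. In poly it was at 32.5 and 105 CPM in WT and 66.6 and 70.1 CPM in CBFB_KO, where the WT libraries lay on either side of the CBFB_KO pair. Its change in free was 2.38 on the log2 scale (SE 0.61, adjusted p = 0.011, edgeR), and that of the ratio, -2.40 (SE 0.83), missed the threshold with an adjusted p of 0.063 by edgeR. The change in free was 0.72 with the length offset (adjusted p = 0.35, edgeR), 0.66 with an offset for GC content (adjusted p = 0.22, edgeR) and -0.52 with both (adjusted p = 0.38, edgeR), where its direction turned. Without CBFB_KO replicate 2 its call was lost too (adjusted p = 0.13, edgeR). RSEM split some ITGB1 reads with other genes, its expected counts not being whole, and ITGA6 and ITGB1 exons overlap antisense genes in the annotation, whose reads cannot be told apart if strand was not used.

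COL17A1, the hemidesmosomal collagen, was at 15.8 and 14.3 CPM in WT free and 25.9 and 33.6 CPM in CBFB_KO free. In poly it was at 48.6 and 114 CPM in WT and 44.5 and 44.3 CPM in CBFB_KO. Neither fraction overlapped between genotypes, but neither change passed the test: 0.98 in free on the log2 scale (SE 0.47, adjusted p = 0.11, edgeR) and -1.85 in the ratio (SE 0.66, adjusted p = 0.070, edgeR).

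The plakin mRNAs, whose annotated forms are the longest of the set, both passed the test for the ratio, though RSEM's mean isoform length for DST was only 1646 to 5594 bases. PLEC was at 35.6 and 35.2 CPM in WT free and 133 and 52.4 CPM in CBFB_KO free. In poly it was at 144 and 160 CPM in WT and 82.4 and 85.0 CPM in CBFB_KO. The groups did not overlap in either fraction, and replicate 2 of CBFB_KO free was far closer to WT than replicate 1. The log2 change of PLEC was 1.39 in free (SE 0.45, adjusted p = 0.029, edgeR) and -2.25 in the ratio (SE 0.63, adjusted p = 0.031, edgeR). This call depended on how length was treated: after an offset for each library's trend with gene length, the change in free was -2.32 (adjusted p = 0.024, edgeR) and that of the ratio 1.59 (adjusted p = 0.25, edgeR), the direction opposite to that without the offset. The call of PLEC for the ratio was also lost with any replicate left out (adjusted p = 0.076 to 0.18, edgeR).

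DST was at 1.54 and 3.52 CPM in WT free and 17.5 and 41.5 CPM in CBFB_KO free. In poly it was at 3.87 and 15.2 CPM in WT and 4.82 and 4.83 CPM in CBFB_KO. The free levels did not overlap between genotypes, and both CBFB_KO free libraries exceeded every poly library. The log2 change of DST in free was 3.53 (SE 0.77, adjusted p = 0.0058, edgeR), the largest of the 9, and -4.51 in the ratio (SE 1.04, adjusted p = 0.014, edgeR). After the length offset these were 1.70 and -2.53 (adjusted p = 0.054 and 0.073, edgeR), with GC and length offsets 0.85 and -1.68 (adjusted p = 0.21 and 0.11, edgeR), and without CBFB_KO replicate 2 neither was called (adjusted p = 0.065 and 0.18, edgeR). Within CBFB_KO, DST and LAMA3 were lower in poly than in free (log2 change -2.61 and -2.72, adjusted p = 0.021 and 0.0031 by edgeR), the opposite of LAMB3 and ITGB4, where 16.7% of all genes were lower and 14.6% higher. Fewer members were called in poly against free within CBFB_KO with the CBFB_KO poly pair as 1 sample and without either CBFB_KO replicate. Fewer of all genes were called in these fits too.

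**Figure D2:**
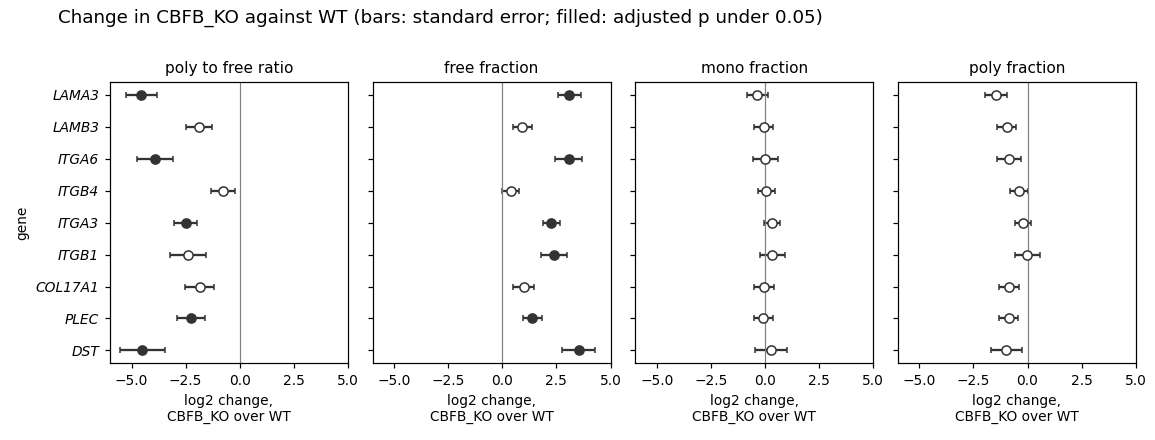
Log2 change of CBFB_KO against WT for the 9 mRNAs, in the poly to free ratio and in the level of each fraction. Points are edgeR estimates, bars their standard error, and filled points an adjusted p under 0.05. Called points occur in the ratio (5 genes) and in free (6 genes), and none in mono or poly.

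The mono and poly fractions themselves gave no called difference between genotypes. In mono 0 of 9 passed by edgeR, with log2 changes from -0.36 to 0.34 and none at an unadjusted p under 0.05, and 0 passed by DESeq2. Of all genes, 0.117% were lower and 0.0307% higher in mono. The mono libraries of the genotypes overlapped for all 9, where 17.0% of all genes lay higher in both CBFB_KO libraries and 12.9% lower. In poly 0 of 9 passed by edgeR or DESeq2, though all 9 estimates lay below 0, from -1.46 (LAMA3) to -0.01 (ITGB1), and LAMA3 and LAMB3 had an unadjusted p under 0.05. Over all 16275 genes tested, 8520 estimates in poly lay below 0, and 451 genes had an unadjusted p under 0.05 by edgeR. Of all genes, 0.166% were lower and 0.0246% higher in poly. Both CBFB_KO libraries were below both WT libraries for 6 of 9 (LAMA3, LAMB3, ITGB4, ITGA3, COL17A1 and PLEC), a pattern seen in 25.0% of all genes. With the CBFB_KO pair counted as 1 sample, its mean was below both WT libraries for the same 6, as it was for 29.5% of all genes, and 0 of 9 passed in poly and in the ratio of poly to mono.

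The ratio of mono to free fell for 4 of the 9, LAMA3 (-3.46), DST (-3.25), ITGA6 (-3.04) and ITGA3 (-1.95), with adjusted p from 0.0087 to 0.049 by edgeR, and rose for none, against 14.2% and 4.87% of all genes. This comparison shares the free libraries with that of poly to free. The ratio of poly to mono, which leaves out the free libraries, gave 0 of 9 by edgeR and by DESeq2, with estimates from -1.27 to -0.35 and none at an unadjusted p under 0.05. No gene of the 16275 passed in this comparison, and 164 had an unadjusted p under 0.05. Within CBFB_KO, 4 of 9 were higher in poly than in mono (ITGA6, ITGB1, COL17A1 and PLEC), where 8.20% of all genes were. Fewer members were called in this comparison and in that of mono to free with the CBFB_KO poly pair as 1 sample. The same held without CBFB_KO replicate 2. Fewer of all genes were called in these fits too, and almost none in poly against mono within CBFB_KO. The members called between genotypes were thus all called in comparisons that hold the free libraries.

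In most conditions the replicate libraries differed by base composition. Between the WT poly libraries, the 5 mRNAs of lower GC content (ITGB1, DST, ITGA6, LAMA3 and COL17A1) were higher in replicate 2 by 1.23 to 1.97 on the log2 scale, whereas LAMB3, ITGA3, ITGB4 and PLEC differed by 0.09 to 0.41. Between the CBFB_KO free libraries, the same 5 were higher in replicate 2 by 0.38 to 1.25 and the other 4 lower, from -0.40 (LAMB3) to -1.34 (PLEC). Over all genes the median difference in CBFB_KO free was 0.43 for GC under 45% and -1.15 for GC of at least 55%, and in WT poly 0.26 and -0.29. These medians were 0.41 and -0.55 in WT mono and 0.43 and -0.18 in CBFB_KO mono, whereas they were -0.03 and 0.18 in WT free and 0.02 and 0.0 in the near-identical CBFB_KO poly pair. With an offset for each library's trend with GC, 8 of 9 rose in free and 7 of 9 fell in the ratio, against 20.1% and 14.4% of all genes. With offsets for GC and length together, 4 of 9 rose in free and 5 of 9 fell in the ratio, against 17.3% and 11.5% of all genes, and LAMA3 and ITGA3 passed in both. These offsets and the GC classes were chosen after the data were seen.

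**Figure D3:**
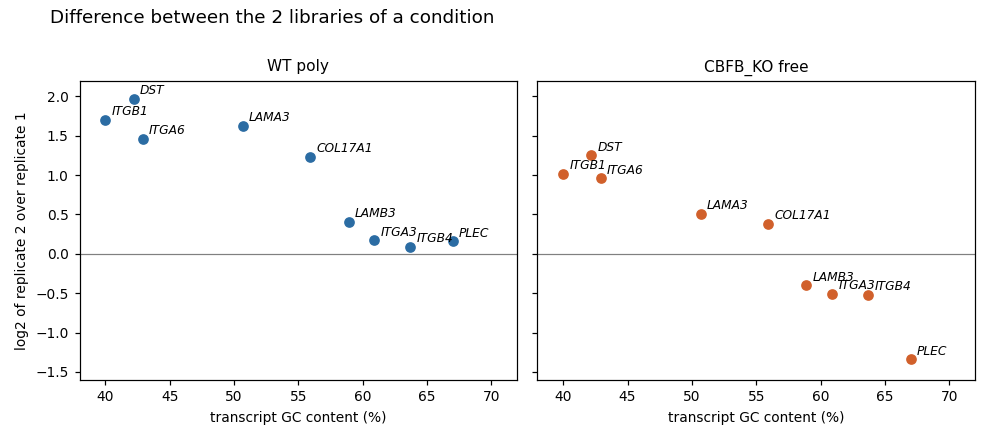
Log2 ratio of replicate 2 over replicate 1 against the GC content of the annotated transcript (%), for the 9 mRNAs in WT poly and in CBFB_KO free. Points are genes. ITGB1, DST, ITGA6, LAMA3 and COL17A1 lie at 1.23 or above in WT poly, and the genes of higher GC content lie below 0 in CBFB_KO free, down to -1.34 for PLEC.

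Mean isoform length, the average over isoforms weighted by their estimated abundance, also differed between fractions. COL17A1 had 1058 and 1256 bases in WT free, 2381 and 2670 in WT poly, and 2349 and 2470 in CBFB_KO free. DST had 2286 and 1646 bases in WT free and 5088 and 5594 in CBFB_KO free. The WT free forms of these mRNAs were therefore shorter by estimate than those in CBFB_KO free. Of the 9, 4 (COL17A1, DST, ITGA3 and ITGB4) were longer in both CBFB_KO free libraries than in both WT free libraries, as were 26.2% of 13663 genes, and 2 (ITGA6 and ITGB1) were shorter, as were 15.7%. The same 4 were longer in WT poly than in WT free, as were 28.9% of genes, and LAMB3, ITGB1 and PLEC were shorter there, as were 16.2%. No test was made, and the part of isoform length in the change of the free fraction was not tested.

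**Figure D4:**
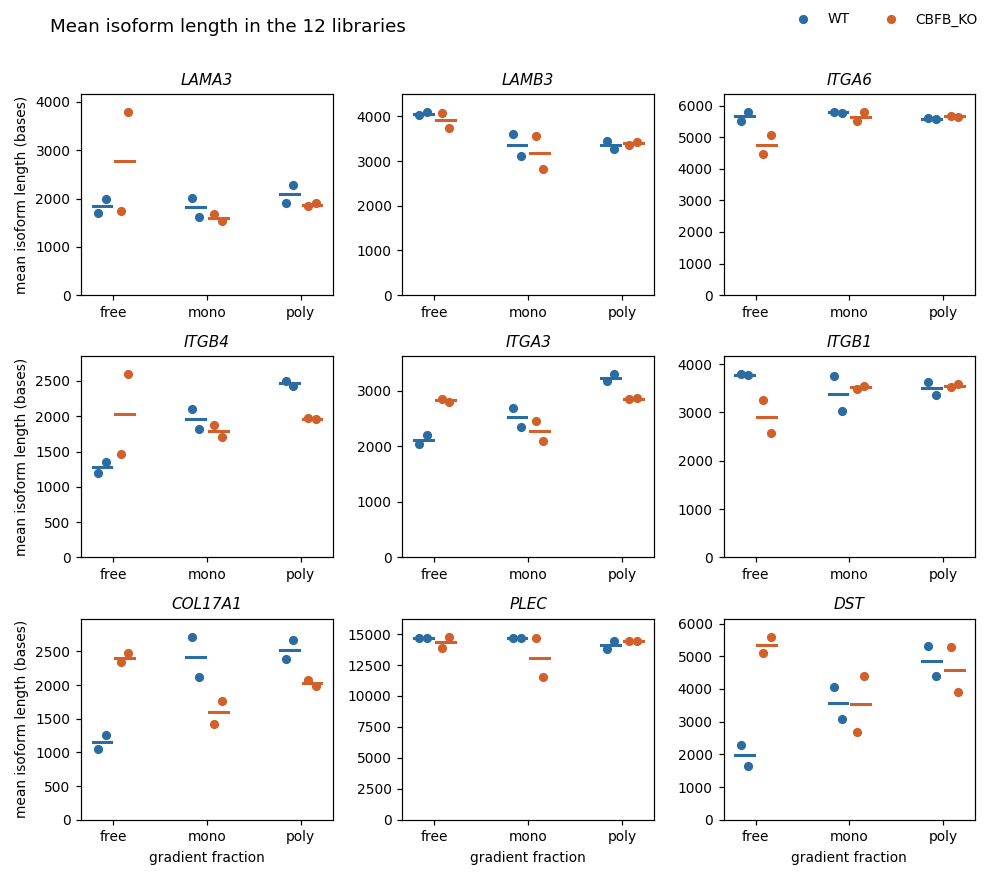
Mean isoform length (bases, from 0) estimated by RSEM for the 9 mRNAs in the 12 libraries. Points are libraries, and bars the mean of the 2. COL17A1 and DST are shortest in WT free, at 1058 to 1256 and 1646 to 2286 bases, and PLEC is at 11528 bases or more in every library.

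Genes of other adhesion lists, set by function with earlier results of these data known, also fell in the poly to free ratio, in which 14.3% of all genes and 47.1% of the long ones fell. Of the 8 other laminin chain genes tested, 4 fell in the poly to free ratio, led by LAMB1 (-7.01, SE 0.86) and LAMB2 (-2.76, SE 0.63), which encode beta chains of other laminins. Among the 7 other integrin genes, 2 fell, the collagen receptor chain ITGA2 (-6.85, SE 1.34) and the vitronectin receptor chain ITGAV (-5.61, SE 1.71). Of 11 other plakin and desmosome genes 7 fell, including DSP (-3.77, SE 0.77), which links desmosomes to keratin, JUP (-2.84, SE 0.66) and DSC3 (-4.14, SE 0.97). Of 9 basement membrane genes 5 fell, including the type IV collagen genes COL4A5 (-5.17, SE 0.90) and COL4A1 (-4.26, SE 0.77) and the laminin receptor gene DAG1 (-2.75, SE 0.58). Of 12 genes for integrin-associated proteins, among them linkers to actin, scaffolds and kinases, 5 fell, including TLN1 (-6.46, SE 0.67), VCL (-5.43, SE 0.84) and ZYX (-3.04, SE 0.62). The filter on low counts had removed 1 laminin, 1 integrin and 2 basement membrane genes from the lists. None of these 47 genes rose in the ratio, and in poly none passed between genotypes by edgeR. In free, 4, 4, 7, 6 and 8 genes of these lists rose and none fell, where 24.2% of all genes and 67.1% of the long ones rose.

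Against the mean log2 level of the 9, NEK9 (r = 0.986), HSPA9 (0.985), GARS1 (0.984), COPB2 (0.984) and TM9SF2 (0.982) were most alike among 5933 candidates over 12 libraries. The genes of the adhesion and marker lists were not among the candidates. Among the 9, DST and LAMA3 (r = 0.97), ITGA6 and ITGB1 (0.97) and LAMB3 and ITGB4 (0.95) were the closest pairs, and LAMA3 and ITGB4 the least alike (0.06). The 5 genes are the top of a ranking and do not describe the other candidates, and the libraries share fractions and genotypes.

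**Figure D5:**
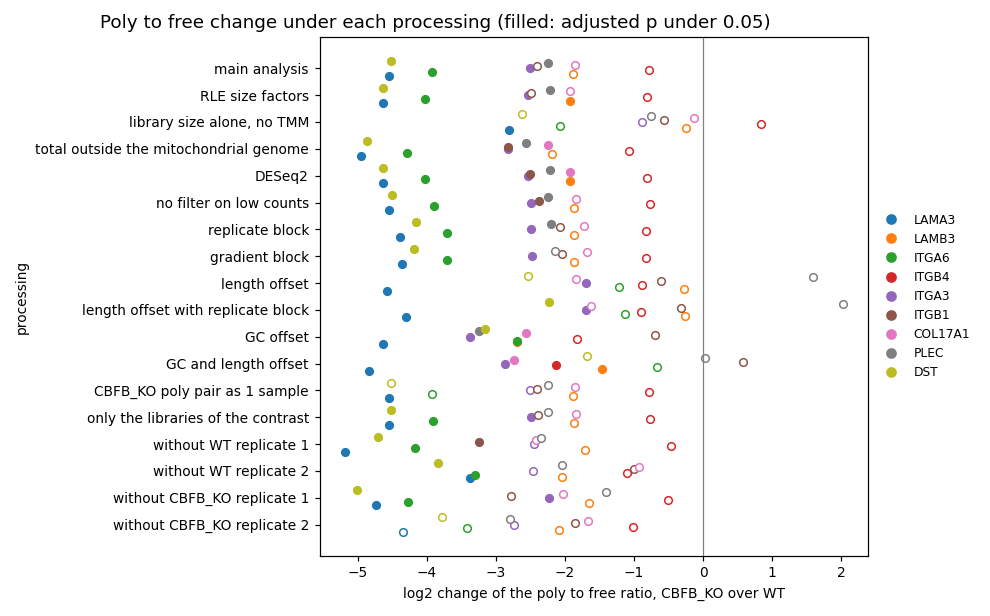
Log2 change of the poly to free ratio (CBFB_KO over WT) for the 9 mRNAs in the main analysis and under each of 17 alternatives. Points are genes, filled where the adjusted p was under 0.05. LAMA3 lies between -5.19 and -2.81 in every case, and PLEC lies above 0 after the length offset (1.59).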

How the data were processed

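Conditions and replicate numbers came from the sample labels. RNA was prepared with a poly-A mRNA kit per the labels, whereas the authors' published methods describe removal of ribosomal RNA for RNAseq. Which of these applied to the fraction libraries cannot be told from the sources used here. The authors trimmed, aligned and quantified the reads with Trimmomatic, STAR and RSEM on hg19, per the submitters' processing notes, which give no versions. The authors deposited unnormalized expected counts, estimated per gene by RSEM, with TPM and FPKM, which RSEM had corrected for effective length and library size. TPM is given here over genes outside the mitochondrial genome, and FPKM as deposited by the authors was only an alternative scale for levels. Expected counts were rounded and fitted with edgeR 4.0.16 (R 4.3.3) on all 12 libraries, with a mean per condition, TMM normalization and filterByExpr (16275 genes). CPM values use the TMM-scaled library size, and standard errors are the log2 change over the square root of the F statistic. The fit was tested on simulated data, where it missed many of the changed genes and the share of false calls lay above the threshold. DESeq2 1.42.0 was an alternative, as were other scalings, no filter, blocks, length offsets and left-out replicates. Sequences, lengths and GC content came from GENCODE release 29 (GRCh38), matched by gene identifier, since the builds differ, and none is printed from chromosome 8. Depth limits CBFB_KO free most, with 5247878 nuclear counts in its replicate 2. All 9 members were named in every comparison. From each related list, up to 3 genes per direction with the smallest adjusted p among called genes were named, and 1 gene that met this rule is not reported here. The most alike genes had a mean of at least 10 CPM. Members and lists were chosen with earlier results of these data known. All values were computed with Python 3.11.15 and figures drawn with matplotlib 3.10.9.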

Additional observations from a re-analysis of the deposited data

Results flagged for a closer look

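For 5 of the 9 mRNAs the change between poly and free differed between CBFB_KO and WT by edgeR's interaction test: LAMA3 (-4.55 on the log2 scale), DST (-4.51), ITGA6 (-3.92), ITGA3 (-2.50) and PLEC (-2.25). For 4 of them the change between mono and free differed likewise: LAMA3 (-3.46), DST (-3.25), ITGA6 (-3.04) and ITGA3 (-1.95). Both comparisons use the same free libraries, of which the CBFB_KO pair had 71.6% and 87.2% of counts on the mitochondrial genome. The part of that share in these differences was not tested.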

How the results depend on the processing

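Called members in the poly to free comparison between genotypes (5 in the main analysis) were 1 with library size alone, 8 with DESeq2, 2 with the length offset, 3 with the length offset and replicate block, 1 with the CBFB_KO poly pair as 1 sample and 0 to 4 with a replicate left out. For mono to free (4) they were 0 with library size alone, 1 with the length offset, 2 with GC and length offsets, 1 with the pair as 1 sample, 1 in a fit of those libraries only and 0 to 3 with a replicate left out. For CBFB_KO against WT in free (6) they were 0 with library size alone, 3 with the length offset (2 higher and PLEC lower), 3 in a fit of those libraries only and 3 to 5 with a replicate left out. Within WT, poly against free (8) gave 4 to 7 and poly against mono (9) gave 0 to 8 with a replicate left out. Within CBFB_KO, poly against free (4) gave 1 with the pair as 1 sample and 0 to 4 with a replicate left out, and poly against mono (4) gave 8 with library size alone, 9 with the total outside the mitochondrial genome, 2 with GC and length offsets, 0 with the pair as 1 sample, 9 in a fit of those libraries only and 0 to 7 with a replicate left out. A lone library was assumed to vary like the other conditions. Calls over all genes within WT also fell in every fit with a replicate left out. Those within CBFB_KO fell with a CBFB_KO replicate left out and with the pair as 1 sample. In poly against mono within CBFB_KO, 1335 of 16275 genes were higher in the main analysis. The count was 2520 of 16275 with library size alone and 3386 of 16907 with the total outside the mitochondrial genome. It was 1575 of 16275 with GC and length offsets and 3991 of 14643 in a fit of those libraries only.

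The sign of single estimates turned as follows, mostly near 0. With library size alone, ITGB4 was 0.84 in the ratio, and LAMB3 -0.73, ITGB4 -1.23, COL17A1 -0.77 and PLEC -0.10 in free. With the length offset, PLEC was 1.59 in the ratio and -2.32 in free, and LAMB3 -0.63 in free. With the length offset and replicate block these were 2.03, -2.61 and -0.65. With GC and length offsets, the ratio was 0.58 for ITGB1 and 0.03 for PLEC, and free was -0.02 for ITGA6, -0.52 for ITGB1 and -0.53 for PLEC. In mono, ITGA6 was -0.01 with RLE factors and with DESeq2, -0.04 with library size alone, and -0.06 with the total outside the mitochondrial genome and in a fit of those libraries only. ITGB4 in mono was -0.01 with library size alone, with the length offset and replicate block and in a fit of those libraries only, -0.02 with the total outside the mitochondrial genome and with the length offset, -0.08 with the GC offset and -0.13 with both offsets. In mono, COL17A1 was 0.02 with the replicate block, and PLEC 0.09 with the length offset, 0.19 with it and the replicate block and 0.14 with both offsets. In poly, ITGB1 was 0.15 with the replicate block, 0.11 with the length offset, 0.22 with both of these and 0.07 with GC and length offsets. With a replicate left out, values on both sides of 0 occurred in mono for LAMB3 (-0.57 to 0.34), ITGA6 (-0.50 to 0.76), ITGB4 (-0.13 to 0.22), ITGB1 (-0.09 to 0.91), COL17A1 (-0.44 to 0.48), PLEC (-0.31 to 0.14) and DST (-0.60 to 0.86), and in poly for ITGA6 (-1.42 to 0.09), ITGB1 (-0.63 to 1.11) and DST (-1.66 to 0.36). The cause was not tested.

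Replicate numbers did not clearly pair the libraries: replicate differences correlated at 0.06, 0.58 and 0.08 between genotypes in free, mono and poly, and from -0.24 to 0.42 between fractions of a genotype. With the replicate block 5 members passed in the ratio and 6 in free, as without it. Of 585 single estimates under an alternative, 467 kept direction and side of the threshold. These include mono and poly, where no member was called in the main analysis, so staying uncalled says little. In the ratio and in free, LAMA3 kept both in the most alternatives (16 and 15) and PLEC in the fewest (6 and 7). When deposited TPM or FPKM was used, 58 of 108 levels moved by more than 1 SD. Over all genes, the poly to free comparison gave 2332 lower and 668 higher in the main analysis, 3264 and 2113 with DESeq2, 1458 and 849 with the length offset, 2338 and 1952 with the GC offset, 801 and 26 with the pair as 1 sample and 360 and 2 without CBFB_KO replicate 2. With the total outside the mitochondrial genome, the median log2 change over all genes was -0.49 in the ratio and 0.43 in free, against -0.10 and 0.04 in the main analysis.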
